A study of Homo sapiens with 2 samples.

Results

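The clustered protocadherin genes were examined in an ATAC-seq study of SUM159, an established triple negative breast cancer line of the mesenchymal, claudin-low kind. Members were the protein-coding genes of GENCODE release 44 on chromosome 5 whose symbol starts with PCDHA, PCDHB or PCDHG and goes on with a letter or digit, which gave 53 of the 19970 protein-coding genes of the autosomes and X. They fall into an alpha cluster of 15 genes, a beta cluster of 16 and a gamma cluster of 22, all on the plus strand of chr5:140786136-141512977 (hg38), a span of 726.8 kb. Both cell populations compared here carried dCas9-KRAB, a Cas9 without cutting activity joined to the KRAB repressor domain and delivered by the lentiviral vector pLV-KRAB with puromycin selection. The No gRNA population had the vector without a targeting guide, and the All gRNA population had in addition a pool of 4 guides against the promoter of ZEB1, a transcription factor that represses epithelial genes. Each population was measured in 1 bulk library, so no test between them was possible and every difference given here is one between these libraries. In bulk cells, a site open in fewer cells cannot be told apart from a site less open in each cell.

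Clustered protocadherins are cell surface adhesion proteins of the cadherin superfamily, best known in neurons, where each cell uses a small choice of isoforms as a surface identity. In the alpha and gamma clusters every variable exon has its own promoter and is spliced to constant exons shared by the whole cluster, while each beta gene is a single coding exon. The promoters hold a conserved sequence element, their choice involves CTCF, cohesin and DNA methylation, and the clusters are often silenced together in tumours. The C-type members, PCDHAC1, PCDHAC2, PCDHGC3, PCDHGC4 and PCDHGC5, lie at the 3' ends of their clusters and in neurons are used more constantly than the other isoforms.

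The members' promoters were almost all without an ATAC peak in either library. Within 1 kb of any annotated transcript start, 6 of 53 members had a No gRNA peak (11.3%, 95% exact binomial interval 4.27% to 23%), against 68.1% of all protein-coding genes. In the All gRNA library 4 of 53 members had one (7.55%, 2.09% to 18.2%), against 67.3% of all protein-coding genes. These intervals, Clopper-Pearson like those of all shares here, treat the members as independent draws, which neighbouring related genes may not be. They measure neither counting error of reads nor the spread between cultures. In both libraries 2 members had a peak, PCDHGA1 and PCDHGC3, where the share over all genes was 65.4%. A peak in No gRNA only was found at 4 members, PCDHB2, PCDHB3, PCDHGB3 and PCDHGB7, against 2.61% of all genes, and in All gRNA only at 2, PCDHB5 and PCDHGC5, against 1.82%. The other 45 members (84.9%) had none in either list, against 30.1% of all genes.

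Peaks were counted at 0 alpha promoters and most often at gamma promoters in both libraries, with intervals that overlap between the clusters. The alpha cluster had 0 of 15 in each library, with an exact interval that reaches 21.8%. The beta cluster had 2 of 16 in No gRNA (12.5%, 1.55% to 38.3%) and 1 of 16 in All gRNA (6.25%, 0.158% to 30.2%), with no member in common. The gamma cluster had 4 of 22 (18.2%, 5.19% to 40.3%) and 3 of 22 (13.6%, 2.91% to 34.9%), of which 2 were the same genes. In each of the 3 clusters and in both libraries the share lay below that over all protein-coding genes.

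**Figure D1:**
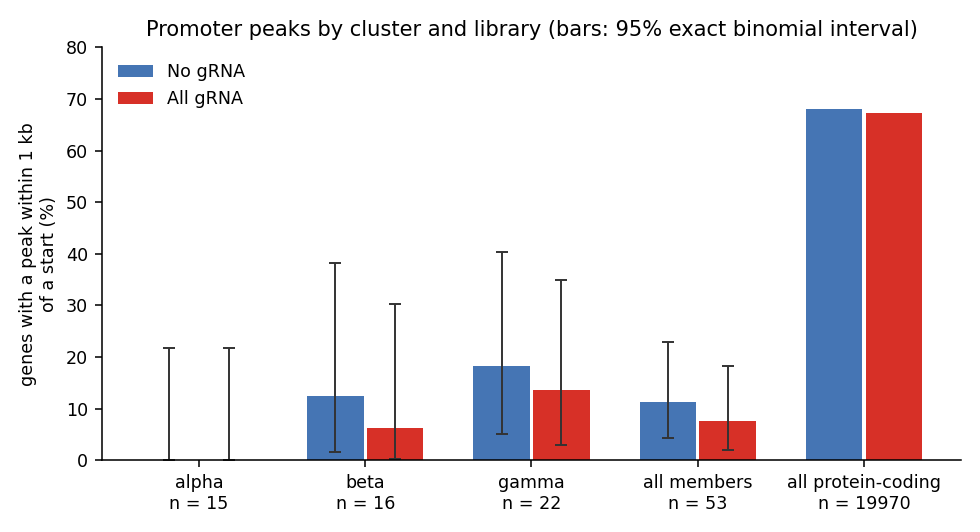
Share of genes with a peak within 1 kb of a transcript start (y axis, percent) for each cluster, all 53 members and all 19970 protein-coding genes, in the No gRNA (blue) and All gRNA (red) libraries, with 95% exact binomial intervals on the members' bars. No alpha bar rises above 0, the gamma bars reach 18.2% and 13.6%, and the bars of all genes stand at 68.1% and 67.3%.

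The promoter sequences of 47 members could be taken from RefSeq (GRCh38.p14) as 250 bases before to 50 after the start, and all 47 were identical to hg38 at the same coordinates. PCDHA3, PCDHA13, PCDHB6, PCDHB11, PCDHGA12 and PCDHGC5 were not matched. The promoters of 3 members are shown with every CpG in capitals, because they have the strongest member peak in both lists, the strongest member peak in 1 list only, and the most CpGs but no peak. The PCDHGC3 promoter has 18 CpGs, the PCDHGB7 promoter 11 and the PCDHAC1 promoter 27.
PCDHGC3 promoter, chr5:141475716-141476015, plus strand: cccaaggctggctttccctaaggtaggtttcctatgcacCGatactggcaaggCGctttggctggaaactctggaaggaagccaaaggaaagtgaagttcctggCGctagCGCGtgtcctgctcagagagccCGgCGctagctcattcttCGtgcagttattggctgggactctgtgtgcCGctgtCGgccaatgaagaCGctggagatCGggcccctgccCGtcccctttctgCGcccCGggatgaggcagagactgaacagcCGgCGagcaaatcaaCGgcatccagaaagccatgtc
PCDHGB7 promoter, chr5:141417427-141417726, plus strand: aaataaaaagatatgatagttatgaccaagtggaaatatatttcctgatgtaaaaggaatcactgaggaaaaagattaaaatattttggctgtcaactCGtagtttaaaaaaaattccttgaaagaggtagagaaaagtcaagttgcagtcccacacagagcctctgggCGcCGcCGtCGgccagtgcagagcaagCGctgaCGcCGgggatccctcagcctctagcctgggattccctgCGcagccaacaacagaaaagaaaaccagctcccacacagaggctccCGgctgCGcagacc
PCDHAC1 promoter, chr5:140926049-140926348, plus strand: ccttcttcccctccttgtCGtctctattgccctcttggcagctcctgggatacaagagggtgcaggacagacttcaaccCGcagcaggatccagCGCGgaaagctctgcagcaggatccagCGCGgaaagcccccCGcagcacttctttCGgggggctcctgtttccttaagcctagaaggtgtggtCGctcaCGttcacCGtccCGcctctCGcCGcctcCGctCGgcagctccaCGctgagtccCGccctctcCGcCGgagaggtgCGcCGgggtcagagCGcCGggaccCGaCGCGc

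In base composition the member promoters had a lower median GC content and a lower median CpG ratio than all protein-coding promoters. The ratio of observed to expected CpGs corrects for base composition, so it is not a count of CpGs per base. Their median GC content was 39.7% (32.3% to 66.0%), against 63.0% over the 15315 protein-coding promoters with a sequence. The observed over expected CpG ratio had a median of 0.593 (0.257 to 1.07) in the members and 0.768 over all promoters. By cluster the median ratio was 0.593 in alpha, 0.631 in beta and 0.527 in gamma, with overlapping ranges. The PCDHAC1 promoter reached a GC content of 66.0% and a ratio of 0.841 and had no peak in either library, and the PCDHGC4 promoter, at 60.7% and 0.848, had none either. Peaks were rarer at the members than at other promoters of like CpG ratio: from 0.6 to below 0.8, 80.5% of all promoters had a No gRNA peak and 79.8% an All gRNA peak, against 3 and 1 of 12 members. From 0.4 to below 0.6 the shares over all promoters were 56.7% and 55.8%, against 2 of 18 members in each library. From 0.8 to below 1 they were 89.9% and 88.8%, against 1 and 0 of 10 members. These classes match the CpG ratio only, and neither GC content nor the number of CpGs was matched. The 7 member promoters with a sequence and a peak in either list had a median ratio of 0.646, and the 40 without a peak one of 0.591, with ranges that overlapped.

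**Figure D2:**
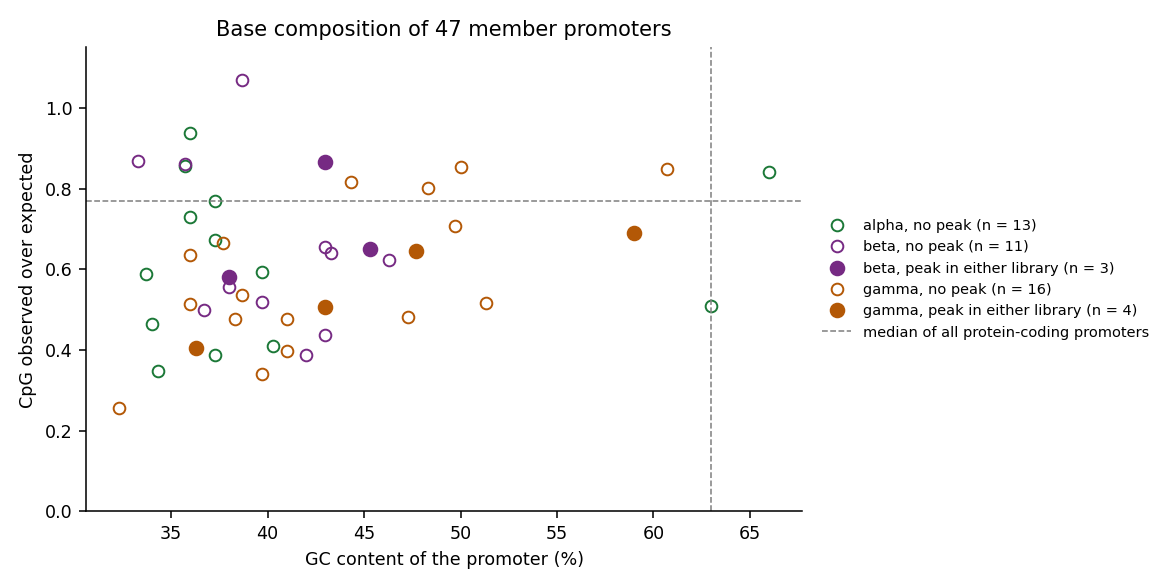
GC content (x axis, percent) against the CpG observed over expected ratio (y axis) of 47 member promoters of 300 bases, coloured by cluster and filled where a peak lies within 1 kb in either library. Dashed lines mark the medians of all protein-coding promoters, 63.0% and 0.768, and filled points lie among the open ones.

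Within each cluster many members carried 1 common word before the start, which few other promoters hold. The words were found by counting every 10-base word on the gene's own strand in the promoters of a cluster, so they were chosen by this count, and each holds the letters CGC. In the beta cluster GGTGGCGCTG was in 12 of 14 promoters (85.7%), with a median position of 65 bases before the start, and in 39 of 15315 promoters in all (0.255%); PCDHB1 and PCDHB14 lacked it. In the alpha cluster ATGATGTCGC was in 8 of 13 promoters (61.5%) at a median of 58 bases before the start, and in 9 promoters in all (0.0588%). It was missing from both C-type alpha members and from PCDHA9, PCDHA10 and PCDHA11. In the gamma cluster GCGCCGCTGT was in 9 of 20 promoters (45.0%) at a median of 69 bases before the start, and in 16 in all (0.104%). None of the 3 words occurred in a member promoter of another cluster. The words are shown in capitals within 30 bases on the plus strand, for members with and without a peak.
PCDHA1, chr5:140786085-140786114: cattggccacATGATGTCGCtgtacaccac
PCDHA4, chr5:140806978-140807007: ttggagccacATGATGTCGCtctttaccac
PCDHA8, chr5:140841129-140841158: ttgaagccacATGATGTCGCtgtctaccaa
PCDHB2, chr5:141094545-141094574: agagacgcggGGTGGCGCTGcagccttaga
PCDHB3, chr5:141100394-141100423: gcgaacgcatGGTGGCGCTGttgactaaga
PCDHB5, chr5:141135180-141135209: taggacgcctGGTGGCGCTGcaggctaaga
PCDHB9, chr5:141187075-141187104: gaagccacaaGGTGGCGCTGcagactgaag
PCDHGA1, chr5:141330405-141330434: aggactgtggGCGCCGCTGTtcactaatct
PCDHGB4, chr5:141387619-141387648: ctgactctggGCGCCGCTGTtggccaaagt
PCDHGA8, chr5:141392570-141392599: aggactgtaaGCGCCGCTGTtcacctactg
PCDHGB6, chr5:141407926-141407955: gagcctctggGCGCCGCTGTcggccagtgc
The word did not separate members with a peak from those without: PCDHB2, PCDHB3, PCDHB5 and PCDHGA1 have it and a peak, and the other 25 members with a word in the windows had no peak. PCDHGC3, PCDHGB3 and PCDHGB7 had a peak and lacked the 10-base gamma word.

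Other motifs were searched on both strands of the same promoters. The letters CGCT, the core of the conserved element, were in 46 of 47 (97.9%), but 81.6% of all promoters hold these 4 letters too. A CTCF core motif of 12 bases was in 1 of 47 (2.13%), at PCDHB9, against 13% of all promoters. The match at PCDHB9 overlaps the beta word shown there. The other beta promoters with the word hold the part of the core that lies in it, but no full match. The E-box CAGGTG, of the kind that ZEB1 binds, was in 4 of 47 (8.51%), against 19.8% of all promoters, and CAGCTG in 5 (10.6%), against 17.7%. TATAAA was in 6 (12.8%), against 9.64%. None of the 7 promoters with a peak held either E-box, the CTCF core or TATAAA. A missing match says only that these letters are not in the 300 bases.

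The members' near-identical copies limit what short reads can place. Of all 31-base words within 1 kb of the canonical start, a median of 2.99% per member (0% to 44%) occurred elsewhere in the chromosomes of hg38, with medians of 9.03% in alpha, 0.989% in beta and 2.41% in gamma. The highest shares were at PCDHB8 (44%), PCDHB13 (43.6%) and PCDHA9 (32.8%), and 11 members were at 0%, among them PCDHAC2, PCDHB2, PCDHB3, PCDHGC3, PCDHGC4 and PCDHGC5. With 50-base words on the same strand, 12 of 53 members had over 10% repeated. The part of repeated sequence in the peak calls was not tested, and a filter on mapping quality is not given in the sources used here.

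PCDHGC3 (ENSG00000240184.7), a C-type member, had the strongest promoter peaks of the clusters in both libraries. In No gRNA its main peak, chr5:141475766-141476199, had a fold enrichment of 18.2 over the local background, a score of 70.2, where the score is the −log10 of the q value, and a pileup of 74, the number of extended read ends stacked on the summit. In All gRNA the matching peak, chr5:141475829-141476192, had a fold of 21.25, a score of 70.2 and a pileup of 67. The summits lay 2 and 16 bp after a start. The All gRNA library had 0.743 times the depth of No gRNA, and with this scaling the log2 ratio of the pileups was 0.28 (95% interval −0.21 to 0.78), a difference within counting error. A second peak, with its summit 513 and 426 bp after the start, had pileups of 24 (No gRNA) and 14 (All gRNA), with a log2 ratio of −0.35 (−1.41 to 0.66). Among the best promoter peaks of all protein-coding genes with a peak, PCDHGC3 stood at percentile 60.7 by score in No gRNA and 79.1 in All gRNA.

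PCDHGA1 (ENSG00000204956.6), the first gene of the gamma cluster, was the other member with a peak in both. Its peaks, chr5:141330414-141330653 in No gRNA and chr5:141330404-141330605 in All gRNA, had their summits 2 and 8 bp before the start, and both cover the gamma word shown for it. The fold was 8.33 in No gRNA and 6.06 in All gRNA, the score 11.1 and 6.17, and the pileup 13 and 8. The log2 ratio was −0.27 (−1.75 to 1.11), within counting error. A further peak in the exon, 350 bp after the start, was in the No gRNA list only, with a score of 7.37 and a pileup of 10.

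PCDHGB7 (ENSG00000254122.3), a gamma member of the B type, had the largest difference between the libraries among the members. In No gRNA a peak of 520 bp, chr5:141417600-141418119, had a fold of 14.7, a score of 29.4 and a pileup of 29, with its summit 66 bp after the nearest start. In All gRNA no peak was listed within 58.15 kb of the gene's starts. A pileup of 29 would scale to 21.6 at that depth, and pileups of 4 were called there at the lowest background, 0.4844. The local background of the No gRNA peak was higher, 1.04, and the lowest pileup called at such a background was not determined. At a background of 0.88, a weak All gRNA peak of the span had a pileup of 8. Of the 18440 No gRNA peaks of the autosomes and X that were at least as strong, 56 (0.304%) had no All gRNA peak, and of the 1329 with a score within 1 of it, 21 (1.58%). PCDHGB7 was picked out for this comparison after its values were seen, and rests on 1 library in each group. In this peak 43.7% of the 31-base words occur elsewhere, against at most 2.56% in the other peaks at member starts, and the part of that in the difference was not tested. PCDHGB6, whose window has the same share of repeated words (16.2%), had no peak in either list.

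The other members with a peak had weak ones, in 1 library each. PCDHB2 (ENSG00000112852.7) had a No gRNA peak at chr5:141094588-141095000 with a fold of 7.26, a score of 8.77 and a pileup of 11, and no All gRNA peak. PCDHB3 (ENSG00000113205.5), at chr5:141100495-141100726, and PCDHGB3 (ENSG00000262209.3), at chr5:141370229-141370428, each had a No gRNA fold of 5.45, a score of 5.23 and a pileup of 8. PCDHB5 (ENSG00000113209.9), at chr5:141135204-141135403, and PCDHGC5 (ENSG00000240764.4), at chr5:141488766-141488998, each had an All gRNA fold of 4.72, a score of 3.83 and a pileup of 6. The peaks of PCDHB3, PCDHGB3, PCDHB5 and PCDHGC5 were weaker than most of their lists, the No gRNA ones at percentile 11.8 and the All gRNA ones at 9.57, and that of PCDHB2 was at percentile 32.5. Of like peaks, 58.2% of those in No gRNA with a score within 1 of 5.23 had no All gRNA peak, 2145 of the 5361 within 1 of 8.77, and 55.8% of the All gRNA peaks within 1 of 3.83 had no No gRNA peak. The remaining C-type members, PCDHAC1, PCDHAC2 and PCDHGC4, had no peak within 1 kb. From their canonical starts the nearest peaks were 50.73, 10.55 and 8.159 kb away in No gRNA and 50.84, 10.67 and 3.736 kb away in All gRNA.

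**Figure D3:**
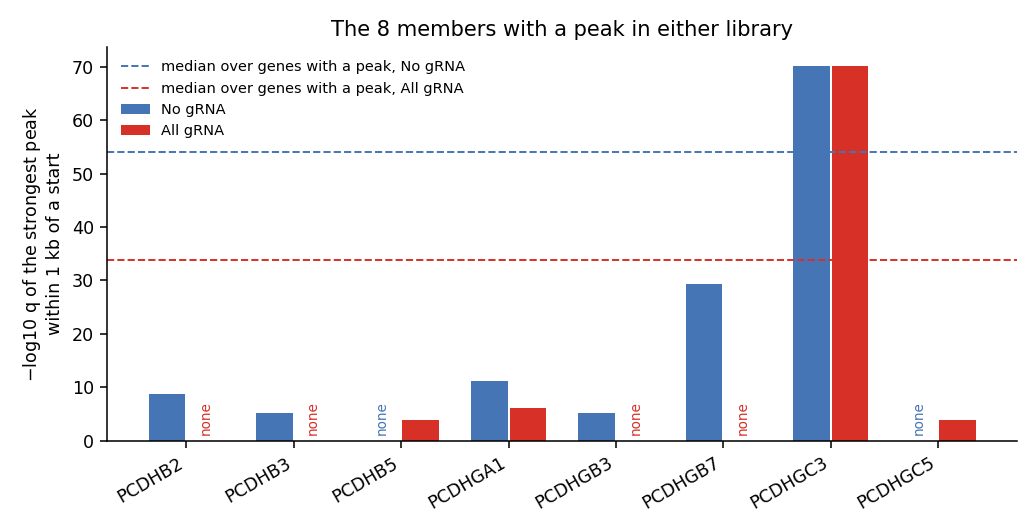
Score, the −log10 of q, of the strongest peak within 1 kb of a start (y axis) at the 8 members with a peak, in genome order, for No gRNA (blue) and All gRNA (red), with "none" where no peak was listed and dashed lines at the medians over all protein-coding genes with a peak, 54.0 and 33.8. PCDHGC3 stands at 70.2 in both libraries, PCDHGB7 at 29.4 in No gRNA alone, and the other members at 11.1 or below.

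The strongest promoter peak of each such member in each library, 10 in all, had its summit at −263 to 109 bp from the nearest start, with 7 of 10 after it. Over genes with a peak, the median score of the best promoter peak was 54.0 in No gRNA and 33.8 in All gRNA, against 9.92 over the 6 and 5.00 over the 4 members with one.

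Over the whole span with 100 kb either side the lists held 27 peaks in All gRNA and 30 in No gRNA, and most lay outside the members' promoters. In No gRNA 8 of these (26.7%) lacked a partner in the other list, against 24.7% genome-wide. In All gRNA 4 (14.8%) lacked one, against 23.8%. At member starts 2 of 5 peaks in All gRNA and 5 of 8 in No gRNA were in 1 list only, and those peaks had scores of at most 8.77 apart from PCDHGB7. Genome-wide, peaks in 1 list only had median pileups of 11 (No gRNA) and 8 (All gRNA), against 25 and 18 for shared peaks. Peak density over the members' own span was 2.34 per 100 kb in No gRNA and 2.06 in All gRNA, near the 2.24 and 2.25 of chromosomes 1 to 22 and X, and the flanks had 6 or 7 per 100 kb. By cluster the density was 1.33 and 1.77 in alpha, 2.02 and 1.52 in beta, and 3.29 and 2.19 in gamma, from 3 to 6 peaks each.

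The peaks were spaced so that long stretches of the clusters held none, where the starts counted in a stretch are the canonical ones. In No gRNA a stretch of 242.3 kb without a peak held the canonical starts of all 15 alpha members, and in All gRNA the same stretch was 250.6 kb. In the beta cluster the longest was 219.6 kb with 13 member starts, from PCDHB4 to PCDHB15, in No gRNA, and 185.0 kb with 11, from PCDHB6 to PCDHB15, in All gRNA. In All gRNA a stretch of 145.2 kb from PCDHGA2 to PCDHGA12 held 18 gamma starts. In No gRNA the exon peak of PCDHGA1 and the peaks at PCDHGB3 and PCDHGB7 lie in it. The No gRNA stretch between PCDHGB7 and PCDHGC3 was 57.65 kb. Of 67845 stretches between No gRNA peaks, 14 were at least as long as the alpha stretch and held at least as many protein-coding starts, and 16 of 68215 between All gRNA peaks. The run of 16 neighbouring protein-coding genes without a peak in either list, PCDHA1 to PCDHB1, was matched or passed in length by 17 of 3110 runs, itself counted. The median distance from a member's canonical start to the nearest peak was 93.2 kb in No gRNA and 95.1 kb in All gRNA for alpha. It was 76.0 and 44.7 kb for beta, and 9.90 and 41.5 kb for gamma, while the median over all protein-coding genes was 0 kb in both.

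**Figure D4:**
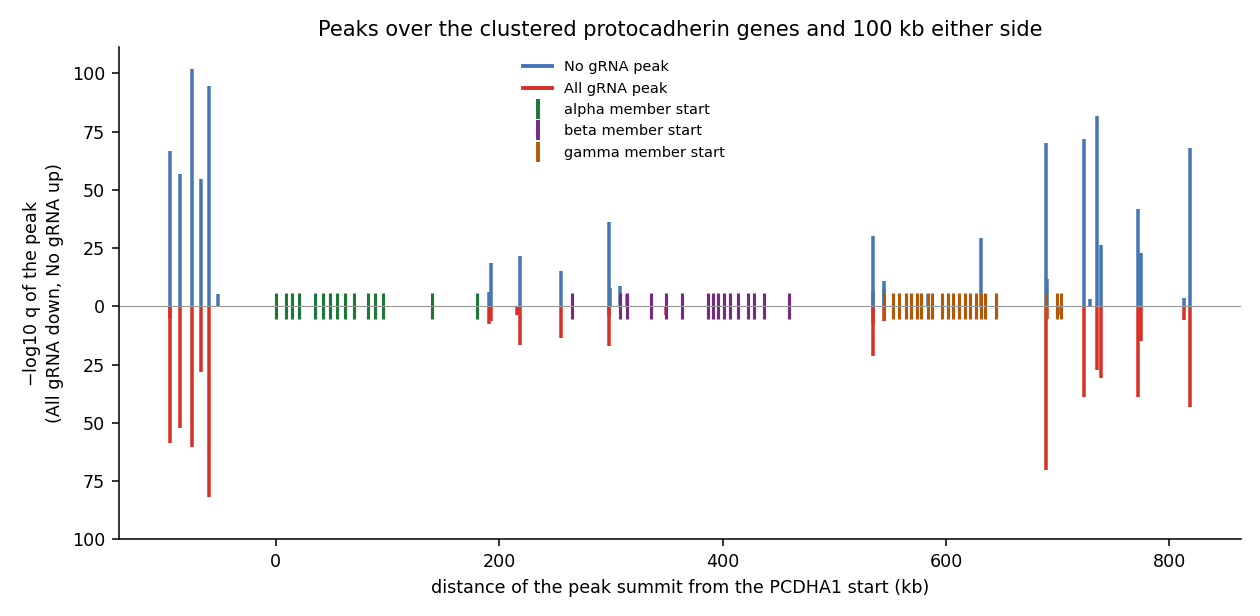
Peaks over the span, by the distance of the summit from the PCDHA1 start (x axis, kb), with the score, the −log10 of q, upward for No gRNA and downward for All gRNA (y axis), and the starts of the alpha (green), beta (purple) and gamma (orange) members as ticks on the line. The ticks are canonical starts. Those of alpha lie in a stretch of 242.3 kb without a No gRNA peak, and tall lines of both libraries stand in the flanks, at PCDHGC3 and near the gamma 3' end.

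Inside the clusters' span, at no protein-coding start, lay 8 All gRNA peaks and 7 No gRNA peaks, 6 of each shared. The strongest lay near the 3' end of the gamma cluster, in the body of all 22 gamma genes and in no exon, 1233 bp from an internal PCDHGC3 start. Its No gRNA peak, chr5:141509120-141509662, had a score of 71.7 and a pileup of 73, and the All gRNA peak a pileup of 46, a log2 ratio of −0.24 (−0.80 to 0.31). In the beta cluster a peak at chr5:141084548-141084833, in the body of the antisense gene PCDHB1-AS1, had a score of 36.2 in No gRNA, with pileups of 35 there and 19 in All gRNA, a log2 ratio of −0.45 (−1.34 to 0.39). It was stronger than any peak at a beta start. The alpha cluster held 3 shared peaks, all after the canonical start of PCDHAC2: pileups were 10 and 12 at chr5:140977030-140977421, 20 and 10 at chr5:140978272-140978604, and 26 and 21 at chr5:141004195-141004631, in No gRNA and All gRNA. The intervals of all 3 ratios include 0. In 1 list only and at no member start, the No gRNA peaks were at chr5:141084891-141085175 (score 7.95), chr5:140734529-140734728 (5.23) and chr5:141514563-141514792 (3.32), and the All gRNA peaks at chr5:141084245-141084444 (4.13) and chr5:141001921-141002120 (3.85).

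Between the alpha and beta clusters 1 peak was called in each library, at chr5:141041124-141041466 in No gRNA, with a score of 15.4 and a pileup of 16, and a pileup of 15 in All gRNA. An enhancer of the alpha genes is known downstream of the alpha constant exons, and whether this peak is that element was not tested. The summit lay 390 bp from a start of the gene ENSG00000288892. The 300 bases around the No gRNA summit are shown because this peak alone among those shared within the clusters' span holds the CTCF core. The capitals mark the core, on the minus strand, and 2 copies of the E-box CAGGTG, also on the minus strand, both of which overlap the core.
Peak between alpha and beta, chr5:141041145-141041444, plus strand: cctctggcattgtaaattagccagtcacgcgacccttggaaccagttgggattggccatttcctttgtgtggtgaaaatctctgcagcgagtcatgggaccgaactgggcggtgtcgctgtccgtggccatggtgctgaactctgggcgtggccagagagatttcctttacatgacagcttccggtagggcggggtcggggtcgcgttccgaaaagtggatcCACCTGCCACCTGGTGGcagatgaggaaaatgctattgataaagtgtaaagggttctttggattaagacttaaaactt
Over all peaks on chromosomes 1 to 22 and X, 10.8% of No gRNA and 10.1% of All gRNA summit windows of this length hold the CTCF core, and 17.4% and 19.1% the E-box CAGGTG.

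The paired peaks of the span had about the same height in both libraries after scaling by depth. Of 21 pairs with 1 partner each, the median log2 ratio of All gRNA over No gRNA was 0.01, against −0.11 over all 48041 pairs. No pair of the span was at least 2-fold lower or higher, where 4.55% of all pairs were at least 2-fold lower and 4.06% at least 2-fold higher. At member starts the 3 pairs were the pair of PCDHGA1 and both of PCDHGC3, and their intervals include 0. The 1 pair whose interval left out 0 lay outside the clusters, in the body of DIAPH1, a formin that builds actin filaments. Its peaks, chr5:141521001-141521850 in No gRNA and chr5:141520979-141521769 in All gRNA, had pileups of 99 and 42, a log2 ratio of −0.81 (−1.37 to −0.27), and 8.65% of all pairs had a ratio as low or lower.

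**Figure D5:**
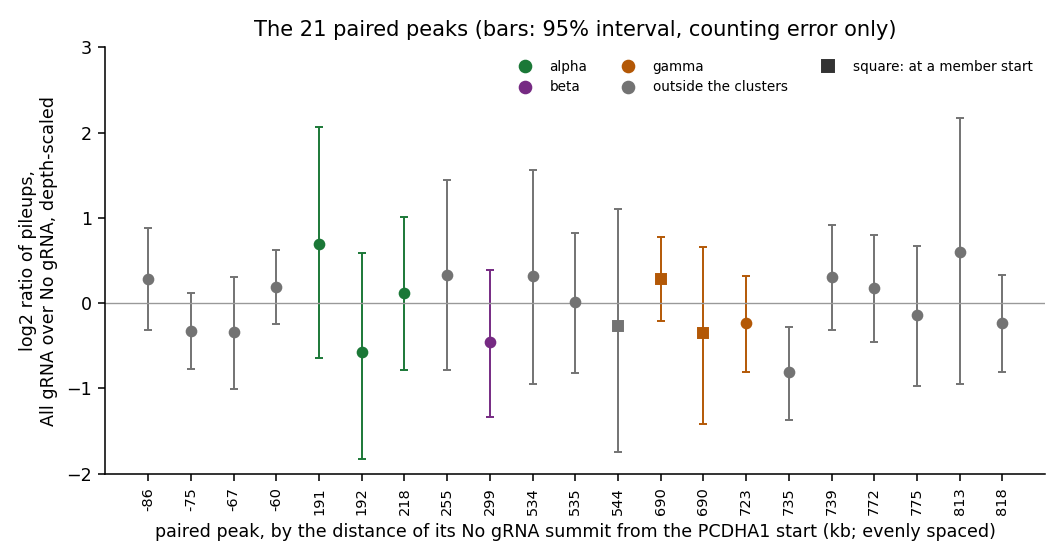
Depth-scaled log2 ratio of pileups, All gRNA over No gRNA (y axis), of the 21 paired peaks of the span in genome order (x axis, distance of the No gRNA summit from the PCDHA1 start in kb, evenly spaced), with 95% intervals for counting error only, coloured by cluster, with squares at member starts. Every interval includes 0 except that of the pair at −0.81 in DIAPH1.

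The genes around the clusters had promoter peaks about as often as all protein-coding genes. Of 7 neighbouring protein-coding genes 5 had a peak in both lists, where the share over all genes was 65.4%. They were HARS1, HARS2, ZMAT2, TAF7 and DIAPH1. SLC25A2, which lies between the beta and gamma clusters, and ENSG00000279983 had none. The best score was 148 in No gRNA and 85.6 in All gRNA at DIAPH1, 66.8 and 58.7 at the shared HARS1 and HARS2 promoter, 56.7 and 52.3 at ZMAT2, which acts in splicing, and 30.2 and 21.4 at TAF7, a subunit of the general transcription factor TFIID. In the flank before the alpha cluster, peaks lay within 221 bp of the starts of VTRNA1-1, VTRNA1-2 and VTRNA1-3, which encode vault RNAs made by RNA polymerase III. Their pileups were 116, 56 and 99 in No gRNA and 69, 33 and 84 in All gRNA. A further flank peak at no protein-coding start, at chr5:141604352-141604819, had pileups of 71 (No gRNA) and 45 (All gRNA).

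Promoters of genes known to act on the clusters, and of proteins that bind protocadherins inside the cell, were counted the same way, where the shares over all protein-coding genes were 68.1% in No gRNA and 67.3% in All gRNA. Of 26 regulators of the clusters and their chromatin, 25 had a peak in No gRNA and 24 in All gRNA. The highest score were at STAG1, a cohesin subunit (211 in No gRNA, 149 in All gRNA), TRIM28, the corepressor that KRAB recruits (187 and 108), WAPL, which releases cohesin (127 and 86.6), and CTCF itself (118 and 66.4). TET1, which oxidises methylcytosine, had a weak peak in No gRNA only (score 4.81), and EHMT2, a histone methyltransferase, had none listed. All 17 intracellular partners had a peak in both, led by PDCD10 (280 and 181), FYN (178 and 131), PTK2B (165 and 91.4) and AXIN1 (141 and 102). Of 13 non-clustered protocadherins and relatives, which stand as single genes, 8 had a peak in each library and 7 in both, a share near that of all genes. PCDH9 (169 and 130), PCDH12 (99.8 and 72.7), PCDH7 (17.1 and 5.34) and PCDH20 (11.9 and 26.3) had peaks in both, CDHR1 in No gRNA only (6.37) and PCDH10 in All gRNA only (4.97). PCDH8, PCDH11X, PCDH15 and PCDH19 had none.

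Marker promoters were counted the same way, where the shares over all protein-coding genes were 68.1% in No gRNA and 67.3% in All gRNA. Of 8 mesenchymal genes 7 had a peak in each library. Of 8 epithelial genes 3 had one in each library and 2 in both. KRT8 (score 57.4 in No gRNA and 21.5 in All gRNA) and EPCAM (15.6 and 9.98) had peaks in both. CLDN4 had one in No gRNA only (10.0) and CLDN7 in All gRNA only (2.75), and CDH1, CLDN3, ESRP1 and GRHL2 had none. Of 6 blood or endothelial genes 1 had a peak in each, PECAM1. Of 4 neural genes 3 had a peak in No gRNA and 4 in All gRNA, so these counts do not check the cell type. At the canonical start of ZEB1, the targeted gene, there were 2 peaks in No gRNA, with a score of up to 14.4, and 0 in All gRNA, where 1 peak remained at another of its starts (7.42). The lists held 74757 and 75217 peaks.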

How the data were processed

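ATAC-seq peaks of 2 SUM159 libraries, No gRNA and All gRNA with 1 library each, were used. The authors used fastp for trimming and bowtie2 for alignment to hg38, discarded mitochondrial, excluded-region and duplicate reads, and called peaks per library with MACS2 without a control. The deposited values are a fold enrichment (a ratio over local background) and −log10 p and −log10 q values, as the authors' caller wrote them. Library totals are not given. The pileup of each peak was the whole number that, with the deposited ratio, best gave its −log10 p (to a relative 1e-05 at 100% of the peaks), a step tested on simulated data, and the depth ratio came from the lowest backgrounds, 0.6518 and 0.4844. Both ends of a fragment can add to a pileup, so intervals of ratios are too narrow. A promoter was 1000 bp either side of any transcript start, peaks sharing 1 bp were called shared, and ratios used pairs with 1 partner each, with exact binomial (Clopper-Pearson) intervals.

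The members and lists were chosen with earlier results of these data known. Named were every member with a peak, the C-type members, PCDHB5, up to 4 genes with the highest −log10 q and the one-library genes of each list, and at no member start the 5 strongest span peaks of each library and the 5 strongest found in 1 library. Motif shares were computed over all protein-coding promoters of equal length. Alternatives were distances of 500 and 4000 bp, canonical transcripts, summits, −log10 q of at least 5 or 10, stricter sharing, the members' span alone and scaling by the median pair. Python 3.11.15, pandas 2.3.3, numpy 2.4.6 and scipy 1.17.1 were used.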

Additional observations from a re-analysis of the deposited data

How the results depend on the processing

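When peaks needed a −log10 q of 5 or more, members with a peak stayed at 6 in No gRNA and fell from 4 to 2 in All gRNA, with 0 in All gRNA only. At 10 or more, No gRNA had 3 (PCDHGA1, PCDHGB7 and PCDHGC3, 2 of them in that list alone) and All gRNA had 1 (PCDHGC3, found in both, which leaves 0 in All gRNA alone), and the span held 16 All gRNA peaks. Both thresholds remove the peaks of PCDHB5 and PCDHGC5 by construction. The members' span alone held 17 No gRNA and 15 All gRNA peaks, 11 of the No gRNA peaks shared. At 4000 bp there were 9 members in No gRNA and 6 in All gRNA, with 1 alpha member, PCDHAC2, in both. With 500 bp, canonical transcripts or summits the same 6 and 4 members had a peak. In all, 73 of 93 alternative values stayed within 1.5 times the reported count or within 1 SD (0.394) of the reported median log2 ratio, and 20 did not. The median log2 ratio, counted as within 1 SD, changed sign from 0.0133 to −0.06113 when peaks needed a −log10 q of 5 or more. No paired analysis was possible because a single library stood for either population. The part of depth in the members' weak peaks was not tested, and no replicate shows how they vary between cultures.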
